A study of Mus musculus with 8 samples.

Results

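miR-147 and miR-455 are a pair of scarce microRNAs (miRNAs, short RNAs that guide the silencing of messenger RNAs) in mouse bone marrow-derived macrophages. Both arms of each hairpin were taken by name: mmu-miR-147-5p, mmu-miR-147-3p, mmu-miR-455-5p and mmu-miR-455-3p, which are 4 of 1907 mature miRNAs in the deposited tables. They were chosen by their low counts and by their difference between LPS and unstimulated libraries, so all values of that contrast are a description with no test. The cells were wild-type bone marrow precursors from mice aged 8 to 12 weeks, grown for 6 days with L929 supernatant, a source of macrophage colony-stimulating factor. One group of 3 libraries was left unstimulated (controls), and the other group of 3 received 100 ng/ml LPS, a bacterial ligand of Toll-like receptor 4, for 3 h. The labels do not say whether the libraries of a group came from separate mice or cultures, so the spread between them may be technical. Small RNA libraries from the total RNA of each sample held 3280688 to 4312555 miRNA counts.

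A miRNA hairpin is cut into a 5p and a 3p strand, of which usually one is kept as the guide of the silencing complex while the other is degraded. Target choice rests mainly on the seed, the bases near the 5′ end of the guide. miR-147 is known as a miRNA that Toll-like receptor signalling raises in macrophages and that tempers inflammatory cytokine production. miR-455 is best known from cartilage and brown fat, and its hairpin lies within a collagen gene.

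Sequences were found in RefSeq (build GRCm38.p6) for 3 of the 4 arms and are shown because their seeds decide which other miRNAs could share their targets. Capitals mark the seed, bases 2 to 8 from the 5′ end. mmu-miR-5129-3p is added since it was the other mature miRNA found with the seed of miR-455-5p.

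mmu-miR-147-5p: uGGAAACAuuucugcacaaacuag

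mmu-miR-455-5p: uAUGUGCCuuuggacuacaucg

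mmu-miR-5129-3p: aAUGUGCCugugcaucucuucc

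mmu-miR-455-3p: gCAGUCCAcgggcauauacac

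miR-147-5p lies at chr2:122640814-122640837, miR-455-5p at chr4:63256867-63256888 and miR-455-3p at chr4:63256904-63256924, all on the plus strand. Each of the 3 sequences occurred once among the RefSeq mature miRNAs. No other mature miRNA there had the seed of miR-147-5p or of miR-455-3p. Sequences were found for 1623 of the 1907 listed miRNAs, so unmatched ones could share a seed. The seed of miR-147-3p was not searched. The Mir147 hairpin (chr2:122640803-122640881) lies within the span of the protein-coding gene AA467197, also called Nmes1, and ends 195 bases before that span ends. The Mir455 hairpin (chr4:63256851-63256932) lies within Col27a1, a fibrillar collagen gene, 42842 bases after the span begins. The table gives spans only, so exon and intron were not told apart. Neither hairpin has a clustered neighbour: the nearest other miRNA genes are 2623286 bases from Mir147 and 4815839 bases from Mir455.

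The stretches of the host gene promoters that hold a match to a factor motif of LPS signalling are shown with the match in capitals. They cover chr2:122637789-122637845 before AA467197 and chr4:63215204-63215263 before the annotated start of Col27a1, which lies inside the gene's span, both on the plus strand.

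AA467197: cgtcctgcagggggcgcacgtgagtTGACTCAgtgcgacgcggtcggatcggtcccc

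Col27a1: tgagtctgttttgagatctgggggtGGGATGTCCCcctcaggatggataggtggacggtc

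In the 250 bases before each start, on both strands, 2 motifs were searched: AP-1 (TGANTCA) and the NF-kB consensus. AA467197 had 1 AP-1 match, which begins 73 bases before the start, and windows of 6.75% of 32851 annotated starts hold one. Col27a1 had 1 NF-kB match, on the minus strand, so the reverse complement of its capitals fits the consensus. It begins 183 bases before the start, and 3.90% of windows hold one. Neither window matched the other motif. No binding was measured here, and a match is a description of letters.

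Levels below are CPM, counts brought to a common library size and scaled by TMM factors of 0.96 to 1.053. One count was worth 0.237 to 0.317 CPM. Means are ± SD with n = 3 libraries, and bracketed ranges for single libraries are exact 95% Poisson intervals, which cover counting error only. Mature miRNAs are of nearly equal length, so no length scaling was applied. In bulk RNA, a change in the share of expressing cells and a change in RNA per cell cannot be told apart.

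miR-147-3p was the most abundant of the 4 arms and the most uneven after LPS. The controls held 80, 38 and 60 counts, or 18.99, 9.22 and 14.6 CPM, a mean of 14.3 ± 4.89. The LPS libraries held 176, 67 and 200 counts, or 55.7, 16.4 and 50.8 CPM, a mean of 41.0 ± 21.4. LPS replicates 1 and 3 lay above every control, while LPS replicate 2 lay within the control range. The Poisson interval of LPS replicate 2 (12.7 to 20.9 CPM) did not reach those of LPS replicates 1 (47.8 to 64.6) and 3 (44.0 to 58.3), so this gap was wider than counting error. It did overlap the intervals of control replicates 1 (15.1 to 23.6) and 3 (11.1 to 18.7). The fitted log2 fold change was 1.51 (SE 0.42). By count, the arm ranked 218th to 262nd of 1907 in the controls and 163rd, 225th and 169th in LPS replicates 1, 2 and 3.

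miR-147-5p, the partner strand, was almost unread without LPS. The controls held 1, 2 and 0 counts, a mean of 0.241 ± 0.243 CPM. By a fixed limit of 3 counts, the count of 0 allows up to 0.727 CPM in that library. The LPS libraries held 15, 8 and 22 counts, or 4.75, 1.96 and 5.58 CPM, a mean of 4.10 ± 1.90. All 3 LPS libraries were above all 3 controls, and LPS replicate 2 was again the lowest of its group. Its interval, 0.847 to 3.86 CPM, overlapped those of all 3 controls, whose exact upper bounds were 1.32, 1.75 and 0.894 CPM. Summed over libraries, 45 LPS counts against 3 control counts gave a 16.7-fold ratio, with a counting interval of 5.37 to 84.1. The arm did not pass the filter on low counts and was not among the tested miRNAs. In a fit without the filter its log2 fold change was 3.93, a value that depends on the prior count and was 2.62 with a prior count of 2.

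miR-455-5p was low in the controls, and its LPS libraries lay close together. The controls held 6, 5 and 7 counts, or 1.42, 1.21 and 1.70 CPM (mean 1.45 ± 0.243). The LPS libraries held 22, 26 and 32 counts, or 6.96, 6.37 and 8.12 CPM (mean 7.15 ± 0.889). The groups did not overlap: the lowest LPS library stood 3.75 times above the highest control. The LPS intervals began at 4.16 CPM or higher and the control intervals ended at 3.497 CPM or lower. The fitted log2 fold change was 2.28 (SE 0.30), and the ratio of mean CPM was 4.95.

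miR-455-3p had 1 control library unlike the other 2. Control replicate 1 held 12 counts (2.85 CPM, interval 1.47 to 4.98), while control replicates 2 and 3 held 1 count each (0.243 and 0.243 CPM, upper bounds 1.35 and 1.35). The LPS libraries held 10, 13 and 14 counts, or 3.17, 3.19 and 3.55 CPM, a mean of 3.301 ± 0.218 against 1.11 ± 1.504 in controls. On the CPM scale all 3 LPS libraries were above all 3 controls, but by raw count control replicate 1 lay above LPS replicate 1. The fitted log2 fold change was 1.53 (SE 0.65), and it was 3.56 without control replicate 1. Among all 1907 miRNAs and 6 libraries, this was the one case of a library with at least 10 counts where both other libraries of its group had at most 1. These cut-offs were written for the pattern of this arm, so nothing is read from its being the only case. miR-455-5p, from the same hairpin, had 6 counts in control replicate 1, between the 5 and 7 of the other controls.

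**Figure D1:**
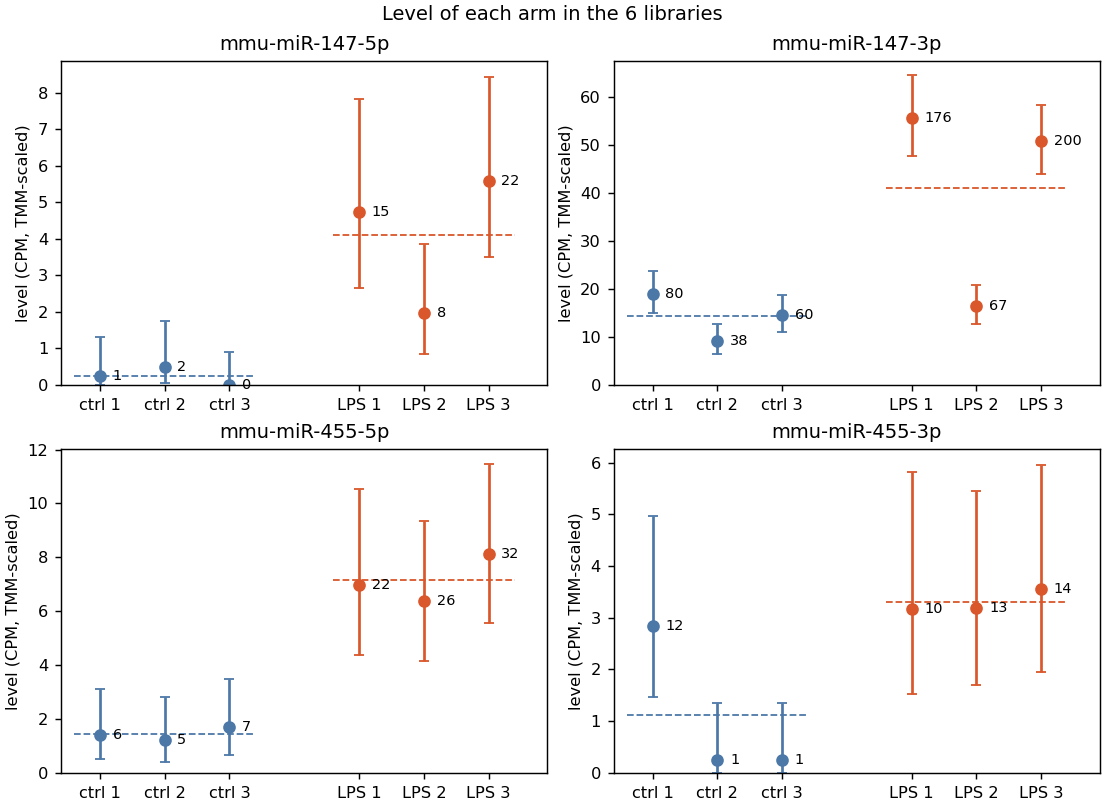
Level of each arm in the 3 unstimulated (blue) and 3 LPS (orange) libraries, in TMM-scaled CPM on linear axes that start at 0. Points are libraries with their raw count beside them, bars are exact 95% Poisson intervals and dashed lines are group means. LPS replicate 2 is low for both miR-147 arms, at 67 and 8 counts, and control replicate 1 is high for miR-455-3p, at 12 counts.

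The tests over the whole table gave the background for these values. Of 357 miRNAs past the filter, 13 (3.64%) rose by edgeR's quasi-likelihood test with an adjusted p below 0.05. Another 5 fell, which makes 18 called in all. Of the 3 tested members, miR-455-5p was called, and miR-147-3p and miR-455-3p were not. Since this contrast chose the members, nothing is read from that count. All 3 LPS libraries lay above all 3 controls for 31 of the 357 (8.68%), among them 2 of the 3 tested members, miR-455-5p and miR-455-3p. miR-147-3p reached the filter level of 2.50 CPM in all 6 libraries. miR-455-5p reached it in the 3 LPS libraries and no control, and miR-455-3p in the LPS libraries and 1 control, so passing the filter already required a high LPS level. miR-147-5p reached it in 2 LPS libraries. Over all tested miRNAs the median log2 fold change was 0.01, and 80% of values lay between -0.31 and 0.37.

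Some alternatives changed a call of a member. miR-147-3p, not called in the fit above, was called without LPS replicate 2 (log2 fold change 1.90), with no filter, with DESeq2 and with a replicate block. miR-455-3p was called without control replicate 1 (log2 fold change 3.56) and with no filter. The contrast chose the members, so these calls describe the settings and nothing is read from them.

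**Figure D2:**
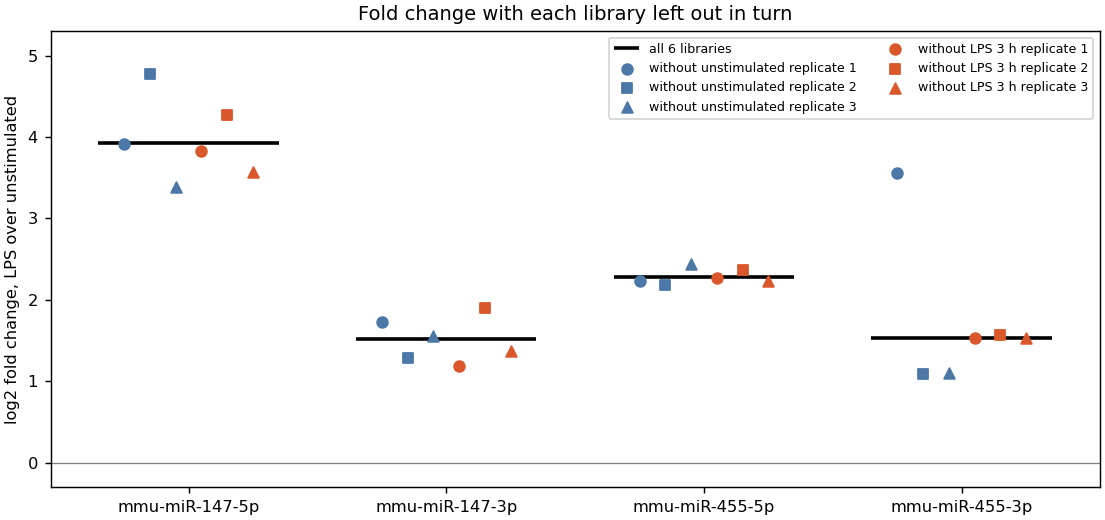
Fitted log2 fold change (LPS over unstimulated) of each arm with all 6 libraries (black lines) and with each library left out in turn (blue without a control, orange without an LPS library). No value is below 0; miR-455-3p moves from 1.53 to 3.56 without control replicate 1, and miR-455-5p stays between 2.18 and 2.44.

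The uneven libraries lay in different groups for the 2 hairpins. For miR-147-3p, the SD of log2 CPM among LPS libraries was 0.964, rank 4 of 357 tested miRNAs, whose median was 0.201. Its highest LPS library was 3.39 times its lowest, against 2.85 times for miR-147-5p, 1.27 for miR-455-5p and 1.12 for miR-455-3p. For miR-455-3p, the SD among controls was 1.25, rank 2 of 357, while among LPS libraries it was 0.0812. miR-455-5p had SDs of 0.179 in controls and 0.165 after LPS, both under the medians of all tested miRNAs (0.201 and 0.201).

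**Figure D3:**
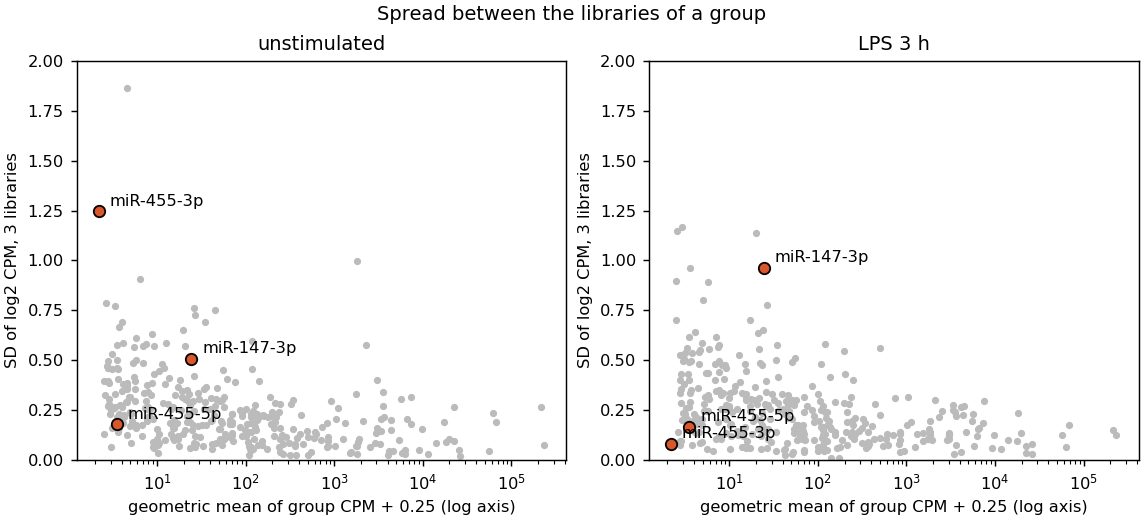
SD of log2 CPM over the 3 libraries of each group (y) against the geometric mean of the group CPM values plus 0.25 (x, log axis) for 357 tested miRNAs (grey) and the 3 tested arms (orange). miR-147-3p stands high after LPS at 0.964, and miR-455-3p stands high among controls at 1.25.

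LPS replicate 2 was low for some LPS-raised miRNAs and high for others. Of the 13 miRNAs that rose, the lowest LPS value was in LPS replicate 1 for 5, in replicate 2 for 6 and in replicate 3 for 2. miR-155-3p, from the hairpin with the largest rise, was at 456.8, 459.3 and 506.7 CPM in LPS replicates 1, 2 and 3. miR-222-5p, an arm of the miR-221/miR-222 pair that acts on the cell cycle inhibitor p27, was highest in LPS replicate 2 (284.6, 500.7 and 316.9 CPM). The pattern of miR-147-3p, with LPS replicates 1 and 3 above every control and LPS replicate 2 within the control range, was found in 14 of 357 tested miRNAs. One of them was miR-146a-5p, which targets the adaptor proteins Irak1 and Traf6, at 22630, 16420 and 20230 CPM after LPS and 17520, 15880 and 17860 in controls.

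The share of each arm in the counts of its hairpin does not depend on the scaling of libraries. miR-147-5p made up 1.24%, 5% and 0% of the miR-147 counts in the controls (1 of 81, 2 of 40 and 0 of 60). After LPS it made up 7.85%, 10.7% and 9.91% (15 of 191, 8 of 75 and 22 of 222). The mean share went from 2.08% ± 2.61 to 9.48% ± 1.46 (SD, n = 3), and the point values of the groups did not overlap. How many other hairpins have shares apart in this way was not computed, so nothing is read from it. LPS replicate 2, whose miR-147-3p level was within the control range, had the highest 5p share of all 6 libraries. Its exact 95% binomial interval (Clopper-Pearson), 4.72% to 19.9%, overlapped those of all 3 controls. The control intervals ended at 6.69%, 16.9% (replicate 2, which rests on 40 counts) and 5.96%. The interval of LPS replicate 1 began at 4.46% and also overlapped all 3. That of LPS replicate 3 began at 6.315% and overlapped those of control replicates 1 and 2. A larger fitted rise of the scarcer arm was not particular to miR-147. The log2 fold changes were 6.85 (3p) and 2.75 (5p) for miR-155, and 2.41 (3p) and 0.21 (5p) for miR-146a. For miR-222 they were 1.73 (5p) and 0.52 (3p). miR-455 went the other way with all 6 libraries, at 1.53 for its scarcer 3p arm and 2.28 for the 5p arm. This order rested on control replicate 1: without it the values were 3.56 (3p) and 2.23 (5p).

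The 2 arms of miR-455 were closer to each other in level. The 5p arm made up 68.8%, 66.7% and 69.6% of the hairpin's counts in the LPS libraries, a mean of 68.3% ± 1.495. In the controls it made up 33.3%, 83.3% and 87.5%, a mean of 68.1% ± 30.1 over only 18, 6 and 8 counts. The control share rested on control replicate 1. The mean share of the 3p arm in controls was 31.9%, against 31.7% after LPS, but 14.6% without control replicate 1 and 43.75% over summed counts. Only in control replicate 1 did the 3p arm outnumber the 5p arm, with 12 counts against 6, and its interval for the 5p arm (13.3% to 59.0%) overlapped those of the other controls. Summed over arms, the miR-455 hairpin was at 2.56 ± 1.51 CPM in controls and 10.5 ± 1.09 after LPS, and the miR-147 hairpin at 14.5 ± 4.76 and 45.1 ± 23.2.

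**Figure D4:**
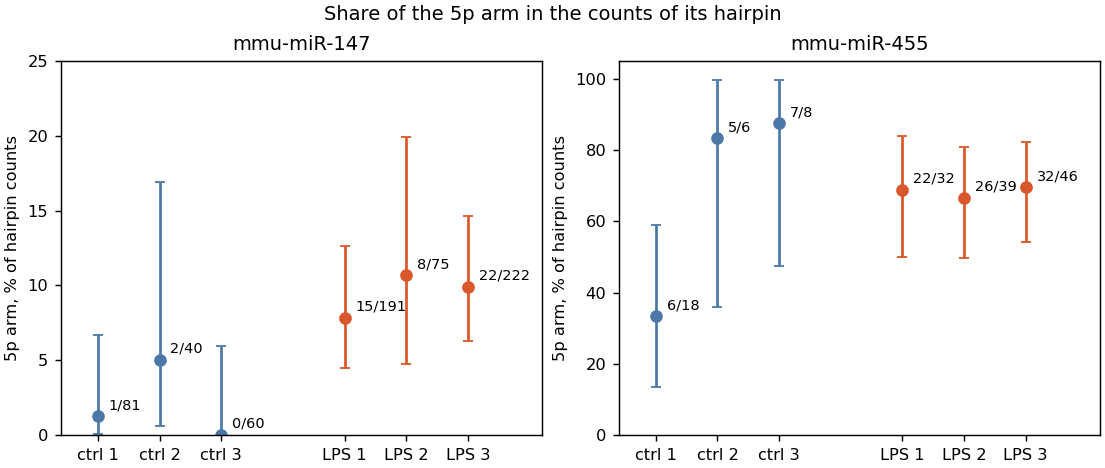
Share of the 5p arm in the counts of its hairpin, in percent, for miR-147 (left) and miR-455 (right, other scale) in the unstimulated (blue) and LPS (orange) libraries. Bars are exact 95% binomial intervals and labels give 5p counts over the hairpin's counts; miR-147 shares are 0% to 5% in controls and 7.85% to 10.7% after LPS.

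miR-5129-3p carries the seed of miR-455-5p, AUGUGCC, as the sequences above show. It held 42, 39 and 31 counts in the controls and 21, 38 and 36 after LPS, or 8.98 ± 1.29 and 8.36 ± 1.49 CPM, with a log2 fold change of -0.09 (SE 0.24). It did not pass the test. The arms found with this seed summed to 11.4, 10.7 and 9.21 CPM in the controls and 13.6, 15.7 and 17.3 after LPS. miR-455-5p was 14.1% ± 3.8 of that sum in controls and 46.3% ± 5.3 after LPS. The sum went from 10.4 ± 1.11 to 15.5 ± 1.83 CPM, a smaller ratio than that of miR-455-5p alone. miR-8107, the other miRNA found to share bases 2 to 7 with miR-147-5p, had 0 or 1 count per library.

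The miRNAs most like each arm over the 6 libraries were found by Pearson's r of log2 CPM among all other tested miRNAs. Values are a description, since the 2 groups and shared library scaling enter every r. For miR-147-3p they were miR-21a-3p (r 0.95), miR-146a-5p (0.94) and miR-30b-5p (0.88). After group means were subtracted, r was 0.92, 0.94 and 0.95. For miR-455-5p they were miR-155-3p (0.99), miR-125a-3p (0.97) and miR-330-3p (0.97), with 0.45, 0.08 and 0.64 within groups. For miR-455-3p they were miR-7043-3p (0.89), miR-155-5p (0.88) and miR-21a-3p (0.86), with 0.73, 0.76 and 0.64 within groups. Spearman's rho for these 9 pairs was 0.71 to 0.89.

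miRNAs linked to LPS or inflammation in macrophages, the 4 members among them, were taken as a list of 33 listed arms. It was chosen with earlier results of these data known. Of its 28 tested arms, 13 rose and none fell by edgeR, beside 13 of all 357 tested miRNAs (3.64%). Without the members, 12 of 25 tested arms rose. The list thus holds all 13 rises of the table, and given how it was chosen, nothing is read from the count. The count over the whole list was 8 with upper-quartile scaling. The list's median log2 fold change was 0.54, and it was 0.28 without the 3 tested members, beside 0.01 over all tested miRNAs. LPS replicate 2 lay within the control range in 175 of all 357 tested miRNAs (49%) and in 9 of the 28, namely miR-125a-5p, miR-132-3p, miR-132-5p, miR-146b-3p, miR-187-3p, miR-210-3p and miR-21a-5p besides miR-146a-5p and miR-147-3p. Of these 9, miR-147-3p had the largest fitted log2 fold change, and the others ranged from -0.27 to 0.28. The rises other than miR-455-5p had log2 fold changes from 0.52 (miR-222-3p) to 6.85 (miR-155-3p).

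The macrophage markers fixed for these samples summed to 488700 to 545800 CPM in controls and 495900 to 564100 after LPS. Most of this came from miR-22-3p (219000 to 257700 CPM over the 6 libraries) and miR-21a-5p (176000 to 252700), while miR-223-3p was at 1663 to 3414 CPM. miR-142a-3p was at 0 in all 6 libraries and the other 5 of the 6 were read. Of the read ones, miR-142a-5p, from the same hairpin, held 196331 to 238828 counts. Cartilage and mesenchyme markers, cells in which miR-455 is known, summed to 6575 to 6815 CPM in controls and 6032 to 7333 after LPS, almost wholly from miR-140-3p. Control replicate 1, high for miR-455-3p, was at 6623 CPM. Within that list miR-199a-5p and miR-145a-5p were at 0 in every library, and miR-199a-3p and miR-214-3p had 0 to 4 counts. The muscle markers were at 0 throughout, and the erythroid and endothelial ones summed to at most 5 counts per library. How reads were assigned is not given, so a marker at 0 does not by itself show that its cell type was absent. Lymphocyte markers, almost wholly miR-150-5p, summed to 56.3 to 71.3 CPM in controls and 63.7 to 77.6 after LPS. Epithelial markers, of which 6 of 7 reached 10 counts, summed to 258.7 to 300.4 CPM in controls and 232.3 to 309.3 after LPS, with miR-205-5p at 0. Their lowest LPS sum was in LPS replicate 2, where miR-147-3p was also lowest. That replicate held the lowest LPS value for 129 of all 357 tested miRNAs. Within the list miR-200b-3p was not lowest there, at 64.58, 64.7 and 56.07 CPM in LPS replicates 1, 2 and 3. The part of this list in the miR-147 values was not tested.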

How the data were processed

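The deposited values are raw counts: whole numbers, not normalized, that the authors made for each library. Novoalign, SAMtools 0.1.19 and the build mm10 (GRCm38.p1) are listed in the submitters' processing notes. How reads were assigned to miRNAs, and by which annotation, is not given in the sources used here, so near-identical sequences could have been split or dropped. The 3C-seq samples of the series were not analysed here.

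Counts were fitted over the whole table with edgeR 4.0.16 in R 4.3.3 (quasi-likelihood test, TMM scaling, filterByExpr at a minimum count of 10), with Benjamini-Hochberg adjustment and a threshold of 0.05. The scripts were tested on simulated data. The log2 CPM values use a prior count of 2. Alternatives were DESeq2 1.42.0, 4 other scalings, other filters and prior counts, a replicate block and each library left out. Sequences and positions came from RefSeq GRCm38.p6 tables, a later patch of the deposited build.

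The members and lists were chosen with earlier results of these data known. Other miRNAs are named where they were among the 3 most like a member, shared its seed, stood in the LPS or marker lists, or were singled out after their values were seen (miR-203-3p and the miRNAs below the filter).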

Additional observations from a re-analysis of the deposited data

How the results depend on the processing

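Of 104 recomputed values, 98 stayed within the spread between replicates of the value given, or within 1.5 times for counts, and none changed direction. Leaving out 1 library gave a log2 fold change of 1.08 to 3.56 for miR-455-3p, highest without control replicate 1, and of 3.39 to 4.77 for miR-147-5p, highest without control replicate 2. The same step gave 11 to 18 called miRNAs against 18, lowest without LPS replicate 3. A prior count of 2 lowered the fold change of miR-147-5p to 2.62 and that of miR-455-5p to 1.97, by construction, since it adds counts to both groups. Upper-quartile scaling gave 8 called arms in the LPS list against 13, and the cause was not tested. With a minimum count of 50 both miR-455 arms and miR-147-5p fell below the filter and gave no value.

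Whether same-numbered libraries were paired could not be decided from the counts. Deviations from the group means of same-numbered libraries correlated across miRNAs at 0.025, 0.144 and -0.04. The value of 0.144, for the replicates numbered 2, was the highest of all pairs. LPS replicate 3 correlated best with control replicate 1 (0.14). Low correlations over so few libraries cannot exclude a pairing. With the replicate block 17 miRNAs were called, and the log2 fold change of miR-147-3p was 1.44, which was then called. No scaling moved the median of all tested miRNAs by over 0.1. Depth limits miR-147-5p and miR-455-3p most, where 1 count is 0.237 to 0.317 CPM and a control library can rest on 0, 1 or 2 counts.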

Other observations

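Below the filter lay 584 detected miRNAs that no test covered. In 47 of them all 3 LPS libraries were above all 3 controls on the CPM scale, and in 15 all were below. Of the 47, 5 had at least 20 LPS counts in all, and miR-147-5p led them with 3 control and 45 LPS counts. The others, chosen after their values were seen, were miR-1945 (17 and 31 counts), miR-196b-5p (18 and 23), miR-702-5p (7 and 21) and miR-7666-3p (11 and 20). In each of these 4 the sums differed by less than those of miR-147-5p.

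miR-203-3p, an epithelial marker singled out after its values were seen, was lowest in the libraries numbered 2 of both groups, as was miR-147-3p. It held 144, 55 and 128 counts in the controls and 108, 53 and 132 after LPS. The epithelial list was split in this. On the CPM scale miR-141-3p was also lowest in the libraries numbered 2 of both groups. Among controls miR-200a-3p, miR-200b-3p, miR-200c-3p and miR-429-3p were lowest in control replicate 1, and miR-200b-3p was not lowest in LPS replicate 2. A link to miR-147-3p was not tested.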
